A study of Mus musculus with 12 samples.

Results

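Cytosolic ribosomal protein genes encode the protein shell of the ribosome. They were taken as the genes whose symbols follow the Rpl and Rps naming patterns, together with Rplp0, Rplp1, Rplp2 and Rpsa, each read on its brightest probe set that names a single gene. Of 74 matching symbols in the array annotation, 1 (Rps4l) is a transcribed pseudogene in the reference table and was left out, and 28 occur only on probe sets that name several genes. The remaining 45 genes, of 18193 genes with a single-gene probe set, were 22 proteins of the large subunit, 21 of the small subunit and the 2 stalk proteins Rplp0 and Rplp2.

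The samples were neural tubes micro-dissected from untreated ICR (CD-1) mouse embryos at gestation day (GD) 8.5, GD9.0 and GD9.5, stages that span neural tube closure in this stock. Biotin-labelled cDNA from 100 ng of total RNA per sample was hybridised to Affymetrix mouse arrays. The labels give 4 biological replicates per stage and do not say whether a replicate is 1 embryo, a litter or a pool, so p-values measure the spread between these arrays. The deposited log2 values were used for 2 arrays of GD8.5 (replicates 3 and 4), 4 of GD9.0 and 4 of GD9.5, and the other 2 GD8.5 arrays, deposited as linear intensity, entered only 1 alternative.

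Ribosomal proteins are made in near equal numbers, since each ribosome holds most of them in single copy, and their mRNAs are among the most abundant of a dividing cell. The small subunit reads the mRNA, the large subunit joins the amino acids, and a flexible stalk of acidic proteins on the large subunit recruits the elongation factors. Many of these mRNAs begin with a C and an unbroken stretch of C and T, the terminal oligopyrimidine (TOP) motif, through which the growth-controlling kinase mTOR and the RNA-binding protein Larp1 set their translation. In mice, partial loss of particular members gives tissue-restricted defects, among them the axial skeleton changes of Rpl38 mutants and the dark skin of Rps19 and Rps20 mutants.

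The highest signal of any probe set on an array was 12.4 to 12.5. The 34 members with a mean log2 signal above 10 lay between 10.1 and 12.3, at the upper end close to that. Their pooled within-stage standard deviation (SD) had a median of 0.031 and reached at most 0.071, against a median of 0.114 over all genes. The other 11 members lay between 1.03 and 7.81, and 9 of these are also named by probe sets that list several genes and read above 10. Rps16, Rpl3l and Rpl39l stayed under 1.42 at all 3 stages, the 95th percentile of the mean signal of 39 olfactory receptor genes, so these probe sets gave no measure of their genes. A signal also depends on the probes, so signals of different probe sets do not rank genes by their mRNA.

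The stage differences of the members were small. The first interval is GD9.0 against GD8.5, the second is GD9.5 against GD9.0, and the whole day is GD9.5 against GD8.5. In the first interval 0 of 45 members passed an adjusted p under 0.05 in limma's moderated test with Benjamini-Hochberg adjustment over all genes, where 13.5% of all genes did (6.78% higher and 6.74% lower). In the second 5 of 45 (11.11%) passed, 1 higher (Rpl12) and 4 lower (Rps9, Rpl27a, Rpl37a and Rpl39l). Of all genes 24.3% passed there, 14.1% higher and 10.3% lower. Over the whole day 6 of 45 (13.33%) passed, 1 higher (Rpl12) and 5 lower (Rps9, Rpl14, Rplp2, Rpl27 and Rpl39l). Of all genes 28.6% passed, 15.5% higher and 13.1% lower. At an unadjusted p under 0.05 the members numbered 1, 11 and 9 in these 3 comparisons, beside 4586, 6248 and 6805 of the 18193 genes.

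How many members passed depended on how the spread was modelled. With a spread that follows signal intensity and is fitted robustly, limma called 0 higher and 2 lower in the first interval, beside 17.9% of all genes. In the second the same model called 3 higher and 14 lower (37.78% of members), beside 28.3% of all genes, 16% higher and 12.3% lower. Over the whole day it called 2 higher and 17 lower (42.22% of members), beside 32.2% of all genes, 17.4% higher and 14.7% lower. The median standard error (SE) of a member's GD9.5 minus GD9.0 change was 0.047 without the trend and 0.023 with it. The changes themselves were the same in both models, and the GD9.5 minus GD9.0 change of a member lay between -0.27 and 0.26 on the log2 scale.

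**Figure D1:**
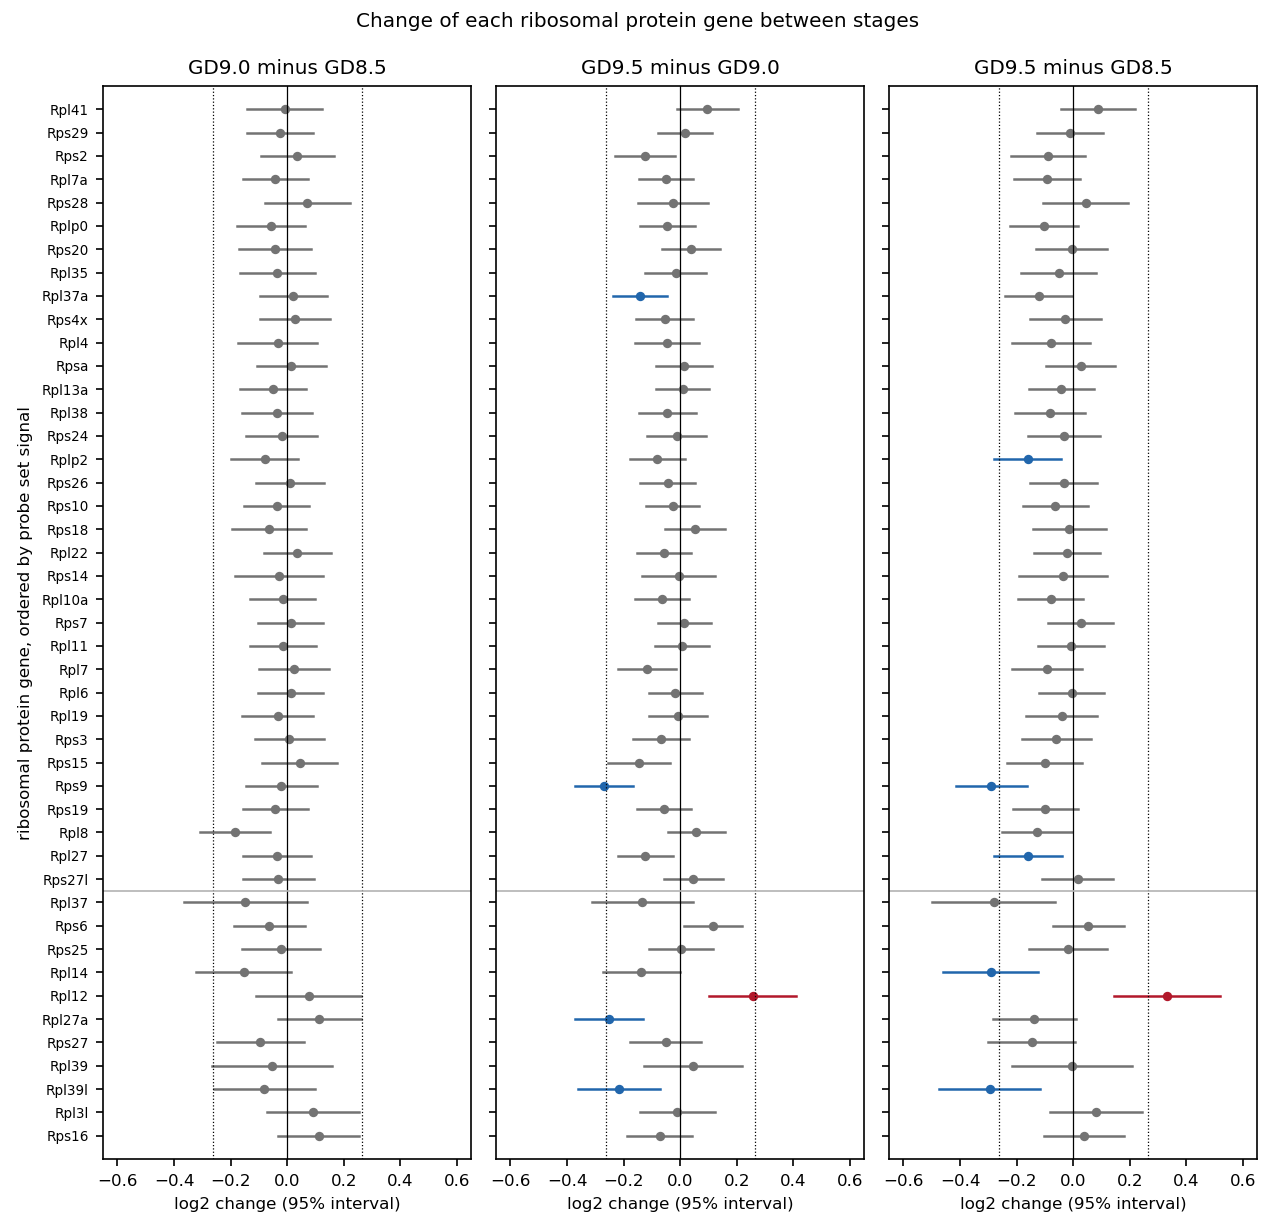
Log2 change of each of the 45 ribosomal protein genes (rows) in the 3 stage comparisons, with 95% intervals from limma. Red and blue mark members called higher and lower, grey those not called, and dotted lines mark 1.2-fold. No interval is coloured between GD9.0 and GD8.5, 5 are between GD9.5 and GD9.0, and 6 are between GD9.5 and GD8.5; the horizontal line separates the 11 members with low signal from the 34 above 10.

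The size of the differences in the deposited signal can be bounded. The 95% interval of the change lay wholly within 1.2-fold in either direction for 41 of 45 members in the first interval (91.1%), for 39 in the second (86.7%) and for 36 over the whole day (80.0%). Over all genes the shares were 27.8%, 39.0% and 22.1%. The width of an interval follows its SE. The median SE was 0.057 for the members and 0.094 for all genes in the first interval, and 0.047 and 0.077 in the second. The shares therefore reflect a low spread as well as small changes. The 45 include Rps16, Rpl3l and Rpl39l, for which an interval at background bounds no change of the gene. Among the 34 bright members the counts were 33, 33 and 31. For those 33, 33 and 31 a change of more than 1.2-fold in signal lies outside the interval. The brightest of them read near the top of the scale. How the scale there and the submitters' processing bear on the sizes was not tested.

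The mean log2 signal of the 45 members moved by hundredths between stages. It was 9.87 and 9.88 on the GD8.5 arrays, 9.85 to 9.87 on the GD9.0 arrays and 9.81 to 9.83 on the GD9.5 arrays. The members' median change was -0.026 in the first interval, -0.045 in the second and -0.041 over the whole day, beside -0.0019, -0.0077 and -0.016 over all genes. Changes were below 0 for 29, 31 and 36 of the 45, beside 9190, 9432 and 9711 of all 18193 genes. With cyclic loess, which follows shifts that depend on brightness, the median change was -0.014, -0.0018 and 0.011, so its sign over the whole day turned. The 22 large-subunit members had medians of -0.034, -0.045 and -0.079, and the 21 small-subunit members -0.021, -0.026 and -0.027; the difference between the subunits was not tested.

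The transcription start windows of 4 members that the results name are shown because the TOP motif is the shared sequence feature of this gene class. They are RefSeq sequences of build GRCm38.p6, from 40 bases before the annotated start to 20 bases from it on, and capitals mark the unbroken run of C or T that covers or touches the start.
Rpl14 (chr9:120571477-120571536, plus strand): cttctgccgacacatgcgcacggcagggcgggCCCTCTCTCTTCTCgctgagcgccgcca
Rplp2 (chr7:141447611-141447670, plus strand): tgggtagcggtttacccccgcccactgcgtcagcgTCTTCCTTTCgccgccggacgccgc
Rps9 (chr7:3704001-3704060, plus strand): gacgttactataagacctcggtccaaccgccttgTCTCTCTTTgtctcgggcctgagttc
Rpl12 (chr2:32961672-32961731, plus strand): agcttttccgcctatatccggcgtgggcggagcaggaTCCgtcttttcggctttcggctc

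In Rpl14 and Rplp2 the annotated start base is a C followed by at least 4 bases of C or T, in runs of 14 and 10 bases. In Rps9 a run of 9 bases covers the start but its start base is a T, and in Rpl12 the run ends just before the start after 3 bases. Of the 45 members, 40 have such a window, with 48 windows in all. A C at the start followed by 4 bases of C or T was found in 8 of 48 windows (16.7%), against 2.51% of all 32851 windows. A run of 8 bases of C or T within 20 bases of the start was found in 19 (39.6%), against 16.0%. These are letters at annotated starts, which can differ from the starts used in the neural tube.

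Other promoter words were searched on both strands of the 300-base windows, 250 before and 50 from the start on. CCGGAAG, a core that ETS-family factors bind, was in 20 of 48 windows (41.7%), against 8.86% of all windows. AAGATGGCG, a core bound by Yy1, was in 2 (4.17%), against 1.40%. TATAAA, the TATA box, was in 5 (10.4%), against 13.6%, and CACGTG, the E-box of Myc, was in 5 (10.4%), against 7.15%. The next windows show a TOP start in members that were not called, Rpl38 and Rps6.
Rpl38 (chr11:114668540-114668599, plus strand): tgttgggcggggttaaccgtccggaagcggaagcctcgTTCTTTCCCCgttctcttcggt
Rps6 (chr4:86857348-86857407, minus strand): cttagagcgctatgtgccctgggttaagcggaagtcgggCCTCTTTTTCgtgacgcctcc

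Rps9, a small-subunit protein that binds the 18S rRNA early in assembly, had the largest second-interval fall of the 34 bright members. Its log2 signal was 11.21 and 11.20 at GD8.5, 11.18, 11.16, 11.21 and 11.20 at GD9.0, and 10.93, 10.85, 10.98 and 10.91 at GD9.5. All GD9.5 arrays lay below all arrays of the earlier stages, which overlapped each other. It fell by 0.27 ± 0.05 (SE) on the log2 scale GD9.5 against GD9.0, 1.21-fold (adjusted p = 0.0015, limma), and by 0.29 ± 0.06 GD9.5 against GD8.5 (adjusted p = 0.0027, limma). The GD9.5 minus GD9.0 fall passed the threshold in all 20 alternatives run; the GD9.5 minus GD8.5 fall was lost with all 12 arrays and with plain probe sets, those whose names lack the suffix that marks probes shared by several transcripts. Its other 2 probe sets, at 5.23 and 4.82, gave -0.05 and -0.25, and neither was called in a fit over all probe sets.

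Rpl37a, a zinc-binding protein of the large subunit, had signals of 11.93 and 11.92 at GD8.5, 11.94, 11.92, 11.98 and 11.95 at GD9.0, and 11.79, 11.78, 11.83 and 11.82 at GD9.5. The GD9.5 arrays lay below all others. It fell by 0.14 ± 0.04 GD9.5 against GD9.0 (adjusted p = 0.0344, limma), a call lost in 14 of 19 alternatives. In the fit over all probe sets its other probe sets fell by 0.19 and 0.49, both called, and the one used here was not (adjusted p = 0.077, limma).

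Rplp2, an acidic stalk protein, had signals of 11.83 and 11.83 at GD8.5, 11.75, 11.71, 11.78 and 11.77 at GD9.0, and 11.69, 11.63, 11.69 and 11.68 at GD9.5. The 3 stages did not overlap. It fell by 0.16 ± 0.05 GD9.5 against GD8.5, 1.12-fold (adjusted p = 0.0464, limma). Rpl27, a large-subunit protein, had 10.87 and 10.91 at GD8.5, 10.84, 10.83, 10.90 and 10.85 at GD9.0, and 10.73, 10.72, 10.72 and 10.77 at GD9.5, and fell by 0.16 ± 0.05 over the same day (adjusted p = 0.0496, limma). The Rplp2 call was lost in 15 of 19 alternatives and the Rpl27 call in 14 of 20.

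The remaining calls came from probe sets of lower signal. Rpl12, which sits at the base of the stalk beside Rplp0, had 6.07 and 6.21 at GD8.5, 6.20, 6.30, 6.23 and 6.13 at GD9.0, and 6.45, 6.64, 6.38 and 6.40 at GD9.5. The GD9.5 arrays lay above all others. It rose by 0.26 ± 0.07 GD9.5 against GD9.0, 1.19-fold (adjusted p = 0.0194, limma), and by 0.33 ± 0.08 GD9.5 against GD8.5, 1.26-fold (adjusted p = 0.0125, limma). The GD9.5 minus GD9.0 rise was lost with all 12 arrays and without GD9.0 replicate 4, and the whole-day rise with all 12 arrays and without GD8.5 replicate 3.

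Rpl14 of the large subunit had 6.87 and 6.77 at GD8.5, 6.57, 6.66, 6.66 and 6.78 at GD9.0, and 6.51, 6.43, 6.57 and 6.61 at GD9.5, so GD9.5 overlapped GD9.0 and not GD8.5. It fell by 0.29 ± 0.08 GD9.5 against GD8.5, 1.22-fold (adjusted p = 0.0138, limma), a call lost without GD8.5 replicate 3 and with a replicate block. Rpl27a, the gene mutated in sooty foot ataxia mice, had 5.18 and 5.09 at GD8.5, 5.21, 5.32, 5.26 and 5.18 at GD9.0, and 5.07, 4.98, 4.92 and 4.998 at GD9.5. All GD9.5 arrays were below all GD9.0 arrays, and it fell by 0.25 ± 0.05, 1.19-fold (adjusted p = 0.0057, limma). With the mean of its probe sets the change was -0.10 and the call was lost (adjusted p = 0.16, limma). That mean includes a probe set at 1.09, under the background level of 1.42, which changed by 0.04.

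Rpl27a was also the single member called for a difference between the intervals in the fit without the intensity trend. Its GD9.5 minus GD9.0 change, less its GD9.0 minus GD8.5 change, was -0.36 (adjusted p = 0.041, limma), in a test that called 11.6% of all genes, 4.67% in this direction. That call was lost in 15 of 20 alternatives. With an intensity trend and robust spread, 7 of 45 members were called (15.56%), 1 higher and 6 lower, beside 17.34% of all genes. Rpl39l, a testis-enriched paralog of Rpl39, passed the test with all its signals under the background level of 1.42, at 1.03, 1.09, 0.90 and 0.93 at GD9.5, so no fold is given.

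**Figure D2:**
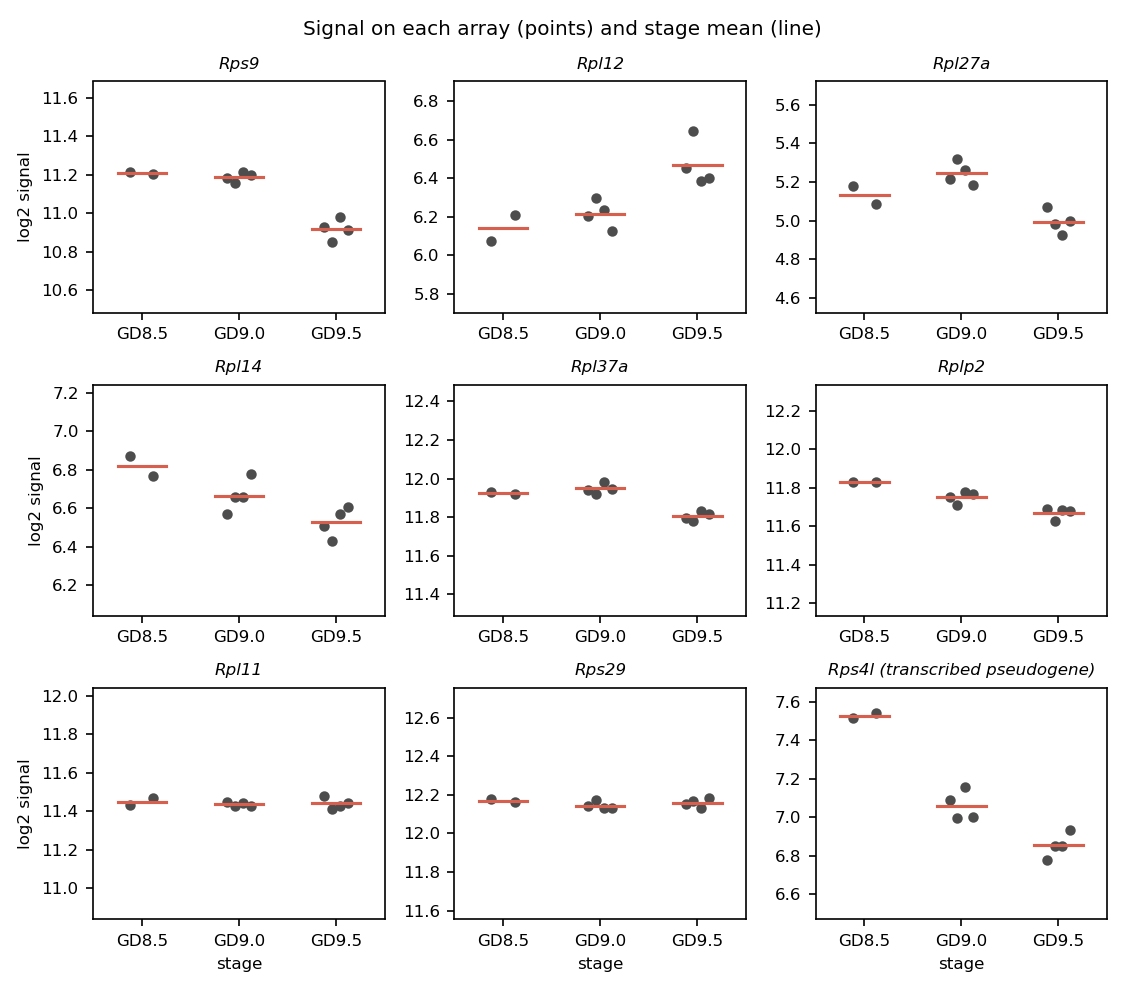
Log2 signal (vertical axis, the same span in every panel) on each array, by stage (horizontal axis), of 8 ribosomal protein genes and the pseudogene Rps4l; points are arrays and lines are stage means. Rps9 drops at GD9.5 and Rpl12 lies higher there, Rpl11 keeps between 11.41 and 11.48, and Rps4l steps down at both intervals.

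Several members with known roles in development or p53 control did not pass the test in the fit without an intensity trend. The outcomes below are those of that fit unless stated. Values of named genes that were not called gave 1960 results under the alternatives. Of these 41 were called, 23 of them with the intensity trend and robust spread. Rpl11, which with Rpl5 and the 5S rRNA can hold Mdm2 and so stabilise p53, lay between 11.41 and 11.48 on all 10 arrays, with a GD9.5 minus GD9.0 change of 0.01 (95% interval -0.09 to 0.10). Rps7, another Mdm2-binding protein, lay between 11.49 and 11.55. Rpl38 averaged 11.84, 11.81 and 11.76 at GD8.5, GD9.0 and GD9.5, with a GD9.5 minus GD8.5 change of -0.08 (95% interval -0.20 to 0.04). Rpsa, the laminin receptor precursor whose mutation causes absent spleen in humans, averaged 11.82, 11.83 and 11.85. None of these 4 was called in any of the 3 comparisons.

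Rps19, the gene most often mutated in Diamond-Blackfan anaemia, had 11.02, 10.995, 11.03 and 11.02 at GD9.5, against 11.09, 11.06, 11.09 and 11.05 at GD9.0. The stages did not overlap, yet the difference was -0.06 ± 0.04 (SE) and did not pass (adjusted p = 0.3995, limma). Rps6, the target of the S6 kinases, had 7.37, 7.38, 7.40 and 7.37 at GD9.5, against 7.25, 7.33, 7.28 and 7.21 at GD9.0, a difference of 0.12 ± 0.05 that did not pass (adjusted p = 0.0959, limma). Rplp0, the scaffold of the stalk, averaged 11.99, 11.93 and 11.89 at GD8.5, GD9.0 and GD9.5 and did not pass in any comparison.

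The member nearest to a call between GD9.0 and GD8.5 was Rpl8, chosen after its values were seen, a large-subunit protein next to the peptidyl transferase centre. It had 10.86, 10.89, 10.82 and 10.92 at GD9.0, against 11.08 and 11.02 at GD8.5. The groups did not overlap, the change was -0.18 ± 0.06 and the adjusted p was 0.0537 (limma). At GD9.5 it read 10.92, 10.91, 10.94 and 10.93.

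Rpl41, Rps29, Rpl7a, Rps2 and Rps28, the 5 members whose probe sets read brightest, did not pass the test in any comparison. Rpl41, a very short peptide, had 12.41, 12.34, 12.38 and 12.43 at GD9.5, against 12.27, 12.23, 12.34 and 12.33 at GD9.0 (0.10 ± 0.05, SE). Rps29 lay between 12.13 and 12.18 on all arrays. Rpl7a averaged 12.04, 11.99 and 11.94 at the 3 stages, Rps2 12.05, 12.08 and 11.96, and Rps28 11.89, 11.96 and 11.93.

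Paralogs were measured in part. Rps27l, a p53-inducible relative of Rps27, averaged 10.10, 10.07 and 10.12 at GD8.5, GD9.0 and GD9.5, and Rps27, read on a dim probe set, averaged 3.99, 3.89 and 3.84; neither passed. Rps4x, the X-linked small-subunit protein, averaged 11.88, 11.91 and 11.85. Rpl39 averaged 1.67, 1.61 and 1.66, close to the background level, on a probe set that gave little measure of the gene. Rpl3l, the striated muscle paralog of Rpl3, was under the background level at all 3 stages.

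The pseudogene Rps4l, whose symbol fits the naming pattern, moved more over the whole day than any of the 45 members. Its signals were 7.51 and 7.54 at GD8.5, 7.09, 6.995, 7.16 and 7.001 at GD9.0, and 6.78, 6.85, 6.85 and 6.94 at GD9.5, with no overlap between stages. It fell by 0.47 ± 0.07 GD9.0 against GD8.5, 1.38-fold (adjusted p = 0.0008, limma), and by 0.67 ± 0.07 GD9.5 against GD8.5, 1.59-fold. Both falls passed in all 20 alternatives.

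Of the 45 members, 22 had 1 single-gene probe set and 23 had more. The 54 probe sets not used as the main reading, 33 of them with signals above 8, were fitted with all probe sets. In the second interval, 2 of the 54 were called higher and 5 lower, where 17.0% of all probe sets were called, and no member had probe sets called in opposite directions. Of these 7, 3 read above 8. Both bright and dim probe sets were called where the main one of the same gene was not, as examples chosen after their values were seen show. For Rps15, a probe set at 10.91 gave -0.24 (adjusted p = 0.0096, limma), and the main one at 11.16 gave -0.15 (adjusted p = 0.099, limma). For Rps28, a probe set at 11.75 gave -0.20 (adjusted p = 0.027, limma), and the main one at 11.93 gave -0.03, not called. For Rps20 the bright probe sets, at 11.90 and 11.72, gave 0.04 and 0.08 there, and the dim ones, at 3.86 and 3.60, gave 0.51 and 0.67, both called. For Rps3 the probe set at 11.19 gave -0.06 GD9.5 against GD8.5, and one at 6.55 gave -0.50, which was called. Whether these probe sets read the same transcript was not tested.

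**Figure D3:**
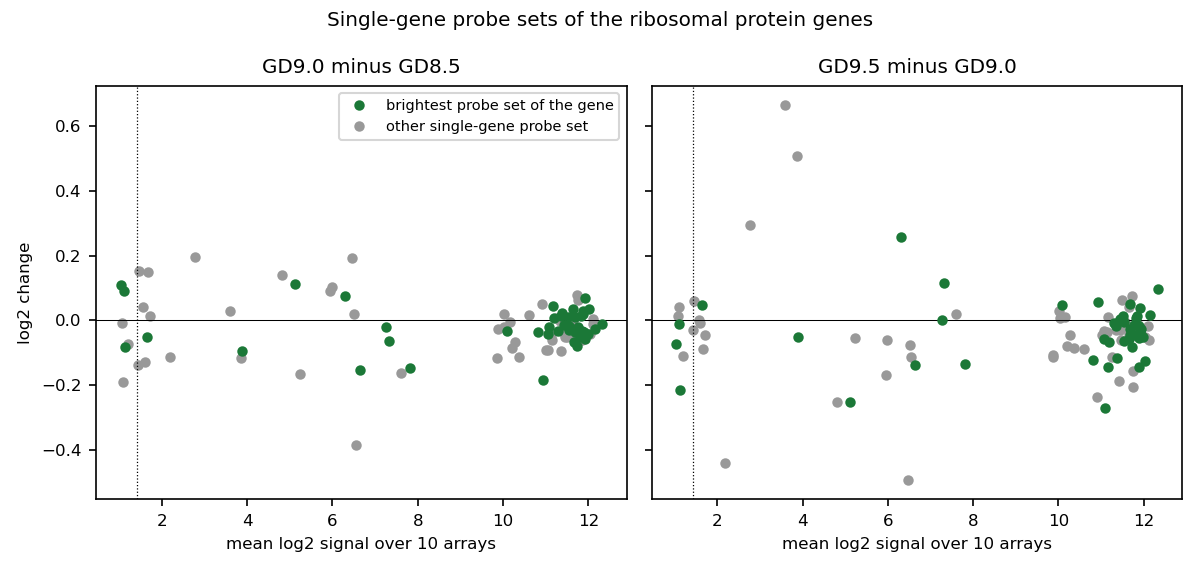
Log2 change (vertical axis) in the first interval (left) and the second (right) against mean log2 signal (horizontal axis) for the 99 single-gene probe sets of the 45 members; green marks the brightest of each gene, grey the others, and the dotted line the background level. Calls are not marked in the figure. Among those called in the second interval, Rps9 lies at -0.27 and an Rps15 probe set at -0.24, both above a signal of 10. The 2 dim Rps20 probe sets, also called, lie at 0.51 and 0.67.

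The probe sets that name a ribosomal protein gene together with other genes were fitted in the same way and no single gene is named from them. Of these 110 probe sets, 79 had signals above 10. In the first interval none was called, where 7.96% of all probe sets were. At an unadjusted p under 0.05 there were 3, beside 8781 of all 45037 probe sets. In the second interval 1 was called higher and 15 lower (14.55%), beside 17.0% of all probe sets. Over the whole day 0 were called higher and 11 lower, beside 19.3%. Their median changes were -0.023, -0.020 and -0.046.

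Most genes of a list that builds ribosomes were called lower in the second interval. Of 81 listed ribosome biogenesis genes, which transcribe and process rRNA and assemble the subunits, 80 were measured, and 2 rose and 2 fell in the first interval (beside 13.5% of all genes). In the second, 2 of the 80 rose and 61 fell, with a median of -0.27, where 14.1% of all genes were called higher and 10.3% lower. Beside this stand 1 and 4 of the 45 ribosomal protein genes and a median of -0.045. Over the whole day, 0 rose and 59 fell, with a median of -0.33, where 15.5% of all genes were called higher and 13.1% lower. The counts in this paragraph are from the fit without the intensity trend. With that trend, 3 of the 45 ribosomal protein genes were called higher and 14 lower in the second interval (37.78%). The biogenesis list averaged 7.10 at GD9.0, while 34 of the ribosomal protein genes lay between 10.1 and 12.3. The difference between the lists was not tested.

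Nop16, a nucleolar protein of large-subunit assembly, had signals of 6.12, 6.16, 6.17 and 6.18 at GD9.5, against 6.97, 6.94, 7.01 and 7.04 at GD9.0, and fell by 0.83 ± 0.05 (SE), 1.78-fold (adjusted p = 4.3e-07, limma), and by 0.52 as the mean of its probe sets. Noc3l, another nucleolar assembly factor, fell by 0.62 ± 0.05, and Polr1b, a core subunit of RNA polymerase I, by 0.82 ± 0.16. Ubtf, which loads that polymerase on the rRNA genes, was among the 2 that rose, by 0.27 ± 0.06; the call was lost with all 12 arrays, and the mean of its probe sets gave -0.05, not called. Nop2, an rRNA methyltransferase, fell by 0.72 ± 0.06 GD9.5 against GD8.5.

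**Figure D4:**
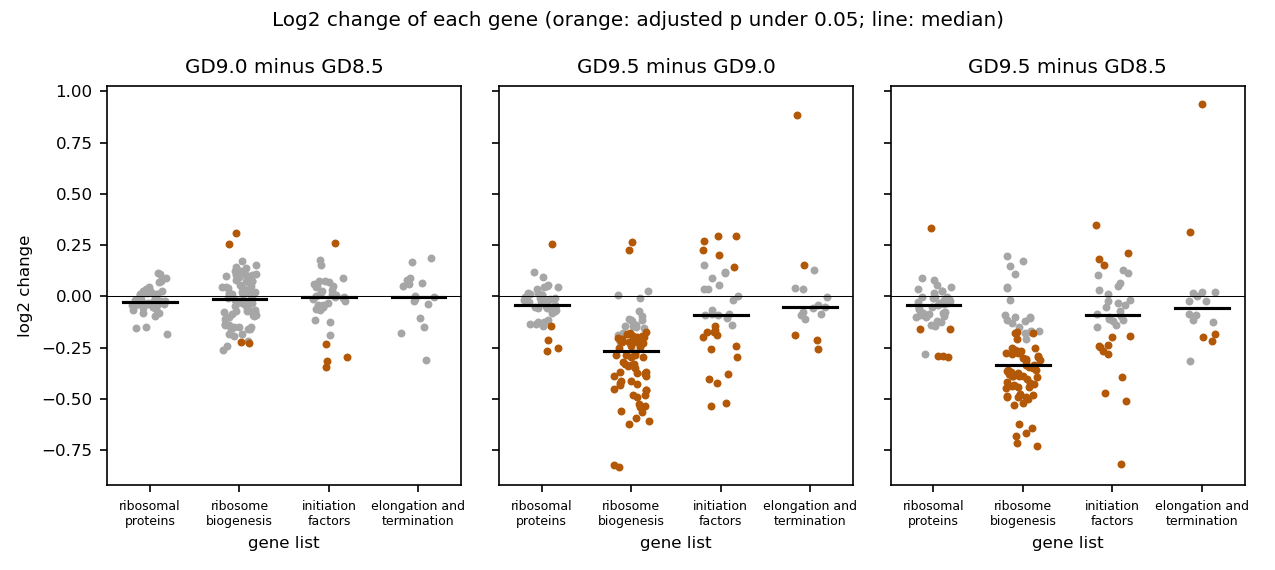
Log2 change of each gene (points) in 4 lists in the 3 stage comparisons. Orange points passed limma's adjusted p under 0.05 in the fit without the intensity trend, and black lines are medians. GD9.5 against GD9.0 the ribosome biogenesis genes centre at -0.27 and the ribosomal protein genes at -0.045.

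Of 36 measured translation initiation genes, 6 rose and 14 fell GD9.5 against GD9.0, with a median of -0.09, where 14.1% of all genes were called higher and 10.3% lower. Eif2b1, a subunit of the exchange factor for eIF2, fell by 0.54 ± 0.05 and Eif4ebp1, an mTOR-regulated inhibitor of cap binding, by 0.52 ± 0.07, while Eif4h, a helper of the eIF4A helicase, rose by 0.29 ± 0.05. The Eif4h call was lost with the mean of its probe sets (0.12) and on a plain probe set (0.13). Of 16 elongation and termination genes, 2 rose and 3 fell, in a comparison that called 24.3% of all genes. Eef2k, the kinase that inhibits elongation factor 2, rose by 0.89 ± 0.12, with 0.54 as the mean of its probe sets and 0.38 on a plain one, all called. The release factor Etf1 fell by 0.26 ± 0.05, a call lost with all 12 arrays.

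Other mRNAs known to carry a TOP motif, 21 of 26 listed, had 5 rises and 5 falls GD9.5 against GD9.0, with a median of -0.044, beside the same 14.1% and 10.3% of all genes. Vim, which encodes an intermediate filament protein, rose by 0.77 ± 0.08 there, and its signals were 10.16, 9.84, 9.89 and 10.13 at GD9.5, against 9.12, 9.24, 9.28 and 9.29 at GD9.0. Of 4 measured genes in a list of ribosomal paralogs, fusion genes and related symbols outside the member rule, 1 was called. It was Rps19bp1, which is neither a paralog nor a fusion but a binding partner of Rps19, and it fell by 0.32 ± 0.05 GD9.5 against GD9.0.

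Markers of the tissues on the arrays also moved between stages. The neuroepithelium list, 10 of 10 markers measured, averaged 5.64, 6.19 and 6.91 at GD8.5, GD9.0 and GD9.5, and the young neuron list 2.49, 3.55 and 5.17. The cardiac muscle list averaged 5.70, 3.03 and 1.49 and the endoderm and yolk sac list 6.01, 3.35 and 1.59, nearing the background level of 1.42. The primitive erythroid list, 9 of 10 measured, averaged 4.61, 5.54 and 6.12. Surface ectoderm averaged 5.42, 4.77 and 4.12, mesenchyme 4.17, 3.74 and 3.60, and endothelium 3.37, 3.32 and 3.22. The 18S rRNA control probe sets averaged 9.82, 8.81 and 10.3, and the actin 3′ minus 5′ signal 0.71, 0.56 and 0.93. The same measure for Gapdh moved less, at 0.039, -0.00095 and 0.049. The part of these shifts in the changes above was not tested, and in such bulk tissue fewer cells of a type and less RNA per cell cannot be told apart.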

How the data were processed

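Total RNA from neural tubes was labelled and hybridised, per the labels' protocols. RMA, GCRMA and Affymetrix Expression Console 1.2.1 are listed in the submitters' processing notes, which do not say what each did. The deposited table holds log2 values on 10 arrays and, per the range of its values, linear intensity on 2, made by the authors; 0 value columns were left unused. The alternative with all 12 arrays put those 2 on log2 and quantile-normalised all.

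The table has 45101 probe sets, of which 64 controls were left out of the gene tests. Platform annotation named 1 gene for 34945 probe sets, several for 932 and none for 9160. Each gene was read on its brightest single-gene probe set. The 3 stage means were fitted together with limma 3.58.1 in R 4.3.3 (residual degrees of freedom 7), with Benjamini-Hochberg adjustment over 18193 genes and a threshold of 0.05, and the fit was tested on simulated data. The precision is limited by the number of arrays, above all the 2 at GD8.5.

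The members and gene lists were chosen with earlier results of these data known. Genes are named by rule: up to 6 called members per direction and comparison whose arrays do not overlap, the 5 with the highest and lowest signal, up to 4 for the interval difference, members of developmental or paralog interest, and up to 3 called genes per list and direction. Lists of growth regulators and p53 targets are described in the closing section. Alternatives changed the array scaling, the arrays, the probe set rule, a filter on dim genes, the spread model, array weights, a replicate block, and left out each array in turn. The pseudogene Rps4l and the probe sets naming several genes were added as alternatives after the data had been seen.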

Additional observations from a re-analysis of the deposited data

Results flagged for a closer look

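Of 160 checks of 4 arrays each, 7 had 1 array apart from the other 3 by Dixon's test, where chance gives about 1 in 20. At GD9.0 Rpl39 had 1 array at 1.53 with the others at 1.64 to 1.65, near the background level, and Rps27l had 1 at 9.99 with the others at 10.1. At GD9.5 Rplp2 had 1 array at 11.63 with the others at 11.68 to 11.69, and Rps27 had 1 at 3.71 with the others at 3.87 to 3.90. Among the genes of the translation and growth lists, Eif5a2 had 1 GD9.0 array at 5.86 with the others at 5.66 to 5.69, and Myc had 1 at 5.42 with the others at 5.62 to 5.65. Lin28b had 1 GD9.5 array at 1.86 with the others at 1.40 to 1.43, about the background level.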

How the results depend on the processing

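Counts are given as higher and lower members for the first interval (GD9.0 against GD8.5), the second, the whole day and the difference between the intervals. They were 0 and 0, 1 and 4, 1 and 5, and 0 and 1. With an intensity trend and robust spread they were 0 and 2, 3 and 14, 2 and 17, and 1 and 6. Shares of all genes called are given above only for the main fit, the fit with the intensity trend and the fit over all probe sets. For the other alternatives a changed count cannot be told apart from a change in calls over all genes. With all 12 arrays the counts were 0 and 1, 0 and 2, 0 and 5, and 0 and 0. With probe sets averaged per gene they were 0 and 1, 2 and 4, 2 and 7, and 1 and 1, and with plain probe sets 0 and 1, 2 and 4, 2 and 4, and 0 and 0. Keeping genes above background gave 0 and 1, 2 and 6, 1 and 5, and 0 and 2. Cyclic loess gave 0 and 0, 2 and 3, 1 and 3, and 0 and 0, median centring 0 and 0, 1 and 3, 1 and 3, and 0 and 0, and array weights 0 and 1, 1 and 5, 1 and 6, and 0 and 1. With Rps4l 1 was lower GD9.0 against GD8.5, and on probe sets naming several genes 0 and 0, 1 and 15, 0 and 11, and 0 and 2 were called. Leaving out each array in turn gave 0 to 1 higher and 2 to 3 lower in the second interval, 0 to 1 and 2 to 4 over the whole day, and 0 to 1 lower for the interval difference; the cause was not tested.

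The members' median change moved, in the same order, to -0.014, -0.020, -0.0048 and 0.011 with median centring, to -0.014, -0.0018, 0.011 and 0.023 with cyclic loess, and to -0.012, -0.032, -0.055 and -0.015 with all 12 arrays. Plain probe sets gave -0.0035, -0.056 and -0.075 for the first 3, the mean of probe sets -0.079 GD9.5 against GD8.5, and repeated quantile normalisation -0.033 and genes above background -0.035 GD9.5 against GD9.0. Without single arrays the medians ran from -0.031 to -0.0092, from -0.047 to -0.030, from -0.057 to -0.041 and from -0.014 to 0.0050. The mean level at GD8.5, GD9.0 and GD9.5 was 9.86, 9.85 and 9.84 with median centring, 9.85, 9.84 and 9.84 with cyclic loess, 10.54, 10.51 and 10.47 with all 12 arrays, 8.79, 8.76 and 8.72 with the mean of probe sets, and 5.96, 5.95 and 5.92 for the 24 members with plain probe sets.

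Same-numbered arrays of 2 stages had correlations of their deviations between -0.062 and 0.101, and not every array correlated best with its own number, so the numbers were not taken to pair samples. The replicate block gave 0 and 0, 1 and 3, 1 and 2, and 0 and 0 calls, and medians of -0.016, -0.045, -0.051 and -0.012. Rps20 GD9.5 against GD8.5, -0.01 on its bright probe set, was 0.28 with the mean of its probe sets and 0.70 on a plain one, both called. The plain probe sets also turned Hnrnpa1 GD9.5 against GD9.0 to 0.17, Btf3 to 0.23 and Eif2s3x to -0.0015 GD9.5 against GD8.5, and the mean of probe sets turned Ubtf GD9.5 against GD9.0 to -0.054. The 2 arrays at GD8.5 limit both comparisons with that stage, and the 11 dim members are the least certain.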

Other observations

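Of 31 listed regulators of ribosome production and growth 29 were measured, and 5 rose and 3 fell GD9.5 against GD9.0, where 14.1% of all genes were called higher and 10.3% lower. Lin28a, an RNA-binding protein that holds back let-7 microRNAs, had 5.86, 6.04, 5.75 and 6.06 at GD9.5, against 7.07, 7.04, 7.19 and 7.03 at GD9.0, and fell by 1.16 ± 0.08 (SE, limma adjusted p = 1.5e-06). Mycl, a member of the Myc family, rose by 0.59 ± 0.06 in the same comparison, and Myc itself fell by 0.71 ± 0.09 GD9.5 against GD8.5. Ddit4, an mTOR inhibitor induced by stress, fell by 0.86 ± 0.09 GD9.0 against GD8.5.

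Of 20 listed p53 targets and surveillance genes 18 were measured, and 7 rose and 2 fell GD9.5 against GD9.0, with a list median of 0.160, beside the same shares of all genes. Btg2, an antiproliferative gene that also marks neuron-producing progenitors, rose by 1.57 ± 0.09 and Pmaip1, a pro-apoptotic protein, by 0.59 ± 0.07. Pmaip1 had been called lower GD9.0 against GD8.5, by 0.48 ± 0.09, and averaged 3.75, 3.27 and 3.86 at GD8.5, GD9.0 and GD9.5. Mdm2, the ubiquitin ligase that degrades p53, was among the 2 that fell GD9.5 against GD9.0, by 0.32 ± 0.07. That call was lost with all 12 arrays and on a plain probe set, where the change was -0.16. The young neuron markers rose in the same comparison, and their part in these values was not tested.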
